A study of Homo sapiens with 4 samples.

Results

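Genes that were detected in naive NB4 cells and not detected in their arsenic trioxide (ATO) resistant derivative were collected, and their functions, positions and probe values are described. A named gene entered the group when at least 1 of its probes was flagged well above background in each naive flask and in no resistant flask, and had a mean log2 value in the deposited table at least 2 higher in naive cells. 227 genes met this rule, with 259 probes. They were 1.24% of the 18367 named genes on the array and 1.68% of the 13539 named genes detected on both naive arrays. The mirrored rule, detection in the resistant line only, was met by 140 genes. "Silenced" is used below for this pattern of detection on the arrays. The rule chose the genes by their difference between the lines, so the differences of these probes are given as a description and carry no test.

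NB4 is a cell line from a patient with acute promyelocytic leukemia (APL), a leukemia driven by the PML-RARA fusion, and ATO is a drug that degrades that fusion protein. The naive group was 2 flasks of NB4 cells. The resistant group was 2 flasks of an NB4 derivative that the labels call NB4-VM-AsR1 and give the phenotype arsenic trioxide resistant. The methods name the resistant clone NB4-EV-AsR1, which was taken to be the same cells, and state that it was kept without ATO for a week before RNA was taken. All flasks were grown in RPMI medium with fetal bovine serum, and no flask carried a further treatment in the labels. The resistant line is 1 clone, so a difference that came with resistance and one that came with the choice of a single clone cannot be told apart. RNA of each flask was hybridised to 1 one-colour Agilent array, and the 4 arrays lay on 1 slide with the naive flasks first and the resistant flasks last, so that array position and line cannot be told apart.

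Values are log2 signals relative to the 75th percentile of each array, so that 0 is that percentile itself. A probe well above background on an array is called detected. Between 28002 and 28272 probes were detected per array, so the number of detected probes was similar in the lines. The naive flasks differed more from each other (SD of the log2 difference 0.71 over the probes detected on both arrays of at least 1 line) than the resistant flasks did (0.37). Where 1 naive flask is left out of the rule it is met by 400 genes without the first and 352 without the second. Of the 227 genes, 224 and 209 were among these. Markers of promyelocytes were present in both lines, at levels that differed in part. Of 15 promyelocyte marker genes on the array, 13 were detected on both naive arrays and none was silenced. MPO, the myeloperoxidase of the primary granules, was saturated on all 4 arrays, so that it was bright in both lines and a difference between them could not be read. CEBPA, a myeloid transcription factor, had 4.96 and 4.23 against 4.72 and 4.52. Of the 14 markers tested by limma, the granule protease genes ELANE and AZU1 were called higher in the resistant line, by 2.49 and 1.17 on the log2 scale, and ANPEP, an aminopeptidase of the cell surface, was called lower (-1.83). PRTN3, another granule protease gene, was at 3.16 and 0.80 in naive and 4.43 and 4.32 in resistant cells and was not called.

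A probe that falls below background has only an upper limit there. A lower bound of the fold difference was therefore computed, with each resistant array set at the lowest value detected on it (-6.32 and -6.63) or at the probe's own value where that was higher. This takes a single limit for each array and not the local background of each spot. "At least" below refers to this bound on the processed signal and is no guaranteed minimum. The bound was at least 2-fold for 207 of the 227 genes, at least 16-fold for 48 and at least 100-fold for 11, with a median of 5.39. Most of the genes were dim in naive cells, with a median of -4.01 against -0.05 over the named genes detected there, and 12 of the 227 lay above the latter. Leaving out 1 naive flask moved the bound by over 1.5 times in 46 of the 227 genes, 5 of them among the 25 with the largest bounds, and leaving out a resistant flask did so in none. The number of genes with a bound of at least 16-fold was between 44 and 60 when 1 flask was left out. The bound is limited by the brightness of the probe in naive cells, so a small bound is no evidence of a small difference. In the resistant line the signal of 79 genes was not significantly above background on either array. It was significantly above background on 1 array for 53 genes and on both arrays for 95. "Not detected" thus covers genes with no measurable signal and genes with a weak one.

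Transcription of a gene starts at its promoter, and many promoters are rich in CG dinucleotides, the sites at which human DNA can be methylated. Genes that are stably shut off in a cell often have methylated or closed promoters. The arrays measured RNA only, and methylation and gene copy number were not measured. The promoters of 7 silenced genes are shown to place the loci, with each CG in capitals. PXDN, BTG3 and TLR2 had CG-dense windows, SEPT10 and ANKRD57 are neighbours that start close together on opposite strands, and GJA1 and CD3D had windows with few CG pairs. The windows run from 250 bases before to 50 after the RefSeq start (GRCh38.p14) and are written 5′ to 3′ on the gene's strand.
PXDN: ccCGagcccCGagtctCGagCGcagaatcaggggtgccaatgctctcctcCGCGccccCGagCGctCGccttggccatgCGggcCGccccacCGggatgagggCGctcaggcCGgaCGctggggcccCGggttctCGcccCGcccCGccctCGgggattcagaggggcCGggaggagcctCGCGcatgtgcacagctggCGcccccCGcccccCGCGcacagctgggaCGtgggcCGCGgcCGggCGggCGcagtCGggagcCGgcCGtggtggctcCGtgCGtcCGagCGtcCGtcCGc
BTG3: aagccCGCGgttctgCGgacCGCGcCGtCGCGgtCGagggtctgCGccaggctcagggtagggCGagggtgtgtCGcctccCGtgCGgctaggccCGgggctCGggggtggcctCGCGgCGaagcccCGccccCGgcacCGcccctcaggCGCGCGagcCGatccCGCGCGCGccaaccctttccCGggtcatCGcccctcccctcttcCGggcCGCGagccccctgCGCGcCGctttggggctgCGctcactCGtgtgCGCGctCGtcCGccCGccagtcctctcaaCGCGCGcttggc
SEPT10: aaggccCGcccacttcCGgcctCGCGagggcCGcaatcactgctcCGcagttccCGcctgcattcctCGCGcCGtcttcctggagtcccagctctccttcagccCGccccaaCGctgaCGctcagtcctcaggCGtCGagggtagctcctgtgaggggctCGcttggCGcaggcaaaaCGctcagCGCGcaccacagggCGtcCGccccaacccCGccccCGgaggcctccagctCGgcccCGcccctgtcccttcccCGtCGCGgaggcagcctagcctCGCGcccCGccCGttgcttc
ANKRD57: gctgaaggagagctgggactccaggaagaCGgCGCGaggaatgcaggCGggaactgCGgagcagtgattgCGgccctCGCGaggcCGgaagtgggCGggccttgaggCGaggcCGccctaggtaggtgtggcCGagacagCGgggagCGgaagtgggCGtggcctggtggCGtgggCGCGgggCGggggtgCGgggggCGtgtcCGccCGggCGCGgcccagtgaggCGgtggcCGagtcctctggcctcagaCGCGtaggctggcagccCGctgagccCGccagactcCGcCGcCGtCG
TLR2: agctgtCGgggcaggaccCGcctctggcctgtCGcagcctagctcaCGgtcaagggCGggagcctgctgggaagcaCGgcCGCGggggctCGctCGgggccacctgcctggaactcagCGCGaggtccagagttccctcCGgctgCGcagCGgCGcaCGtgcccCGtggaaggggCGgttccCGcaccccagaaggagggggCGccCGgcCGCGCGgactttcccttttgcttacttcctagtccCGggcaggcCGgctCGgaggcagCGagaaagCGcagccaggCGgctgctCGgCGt
GJA1: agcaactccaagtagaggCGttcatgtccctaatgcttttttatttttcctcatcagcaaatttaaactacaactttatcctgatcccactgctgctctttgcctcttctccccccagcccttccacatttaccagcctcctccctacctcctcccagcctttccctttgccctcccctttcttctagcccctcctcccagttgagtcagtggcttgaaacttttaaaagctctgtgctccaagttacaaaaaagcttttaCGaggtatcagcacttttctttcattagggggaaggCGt
CD3D: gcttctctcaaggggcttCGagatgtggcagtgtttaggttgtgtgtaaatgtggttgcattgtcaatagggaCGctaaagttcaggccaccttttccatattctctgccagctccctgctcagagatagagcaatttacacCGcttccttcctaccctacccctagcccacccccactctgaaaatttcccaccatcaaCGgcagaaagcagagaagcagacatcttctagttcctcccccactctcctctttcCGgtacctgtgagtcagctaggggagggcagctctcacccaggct

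They lie at chr2:1744466-1744765, minus strand (PXDN), chr21:17612852-17613151, minus strand (BTG3), chr2:109613917-109614216, minus strand (SEPT10), chr2:109614114-109614413, plus strand (ANKRD57), chr4:153684030-153684329, plus strand (TLR2), chr6:121435396-121435695, plus strand (GJA1) and chr11:118342656-118342955, minus strand (CD3D). PXDN held 42 CG pairs, BTG3 held 48, SEPT10 held 33, ANKRD57 held 36 and TLR2 held 33. GJA1 held 3 and CD3D held 5. At least 1 CG was present in 95.8% of all 27305 windows of the table. The median number of CG pairs was 27 in the windows of silenced genes, 25 in the 10576 windows of other genes detected in naive cells and 14 in the whole table. The table held a window for 171 of the 227 silenced genes (75.3%), too few for a comparison of base composition, which is therefore void, and nothing is read from these medians.

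The members with the largest bounds came from several functional groups. HSPA1A, the stress-inducible heat shock protein 70, gave naive values of 4.21 and 2.72 and resistant values of -6.99 and -7.14, a bound of at least 981-fold lower, or 587 without the first naive flask and 1640 without the second. Its 2 other probes were detected in both lines and did not share this size, as described below. PXDN (peroxidasin), a secreted heme peroxidase that crosslinks collagen IV, gave 2.32 and 1.93 in naive and -8.53 and -8.58 in resistant cells, at least 388-fold lower. Both PXDN probes met the rule, and the naive flasks were close together. GJA1 encodes connexin 43, which forms gap junction channels between cells. Its values were 1.81 and 2.34 in naive and -8.59 and -8.89 in resistant cells, at least 374-fold lower, and both of its probes met the rule. G0S2, an inhibitor of adipose triglyceride lipase, gave 1.31 and 2.60 in naive and -8.41 and -7.28 in resistant cells, at least 344-fold lower, or 537 without the first naive flask and 220.2 without the second. CCDC3, a secreted protein, gave 2.02 and 0.99 in naive and -8.62 and -8.44 in resistant cells, at least 252-fold lower. On the probes given here no resistant flask of these genes came near a naive one, and the rule chose the probes for such a gap. Under normexp, a background correction with an offset of 50 that compresses low signals, the log2 differences of HSPA1A and PXDN were -6.13 and -4.85. These are smaller folds than their bounds. In RNA from a whole flask, fewer cells that express a gene and less RNA per cell cannot be told apart.

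**Figure D1:**
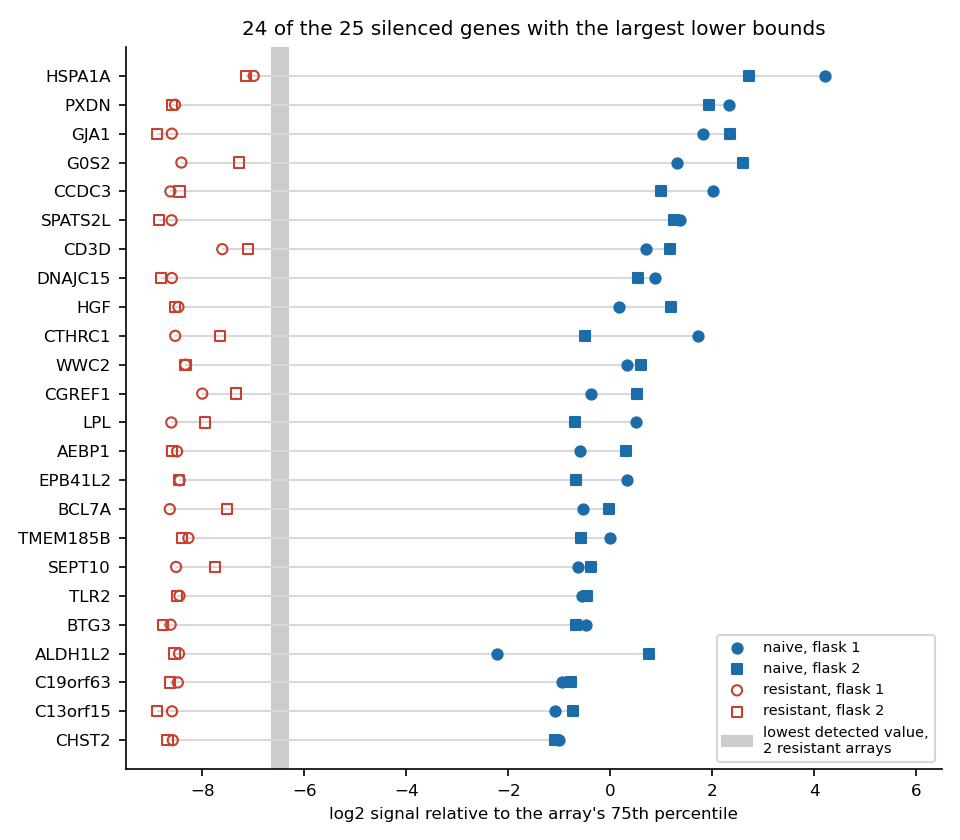
Log2 signal (x axis, relative to each array's 75th percentile) of 24 of the 25 silenced genes with the largest lower bounds, by array: filled naive, open resistant, circle flask 1 and square flask 2. The grey band spans the lowest detected value on the 2 resistant arrays; all naive points lie between -2.21 and 4.21 and all resistant points between -8.89 and -6.99.

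All 227 genes had both resistant values below every naive value; one of them, C3orf45, had 1 naive spot marked as an outlier and rests on 1 naive value. Over all 28228 probes tested this order held for 28.2%. By limma with Benjamini-Hochberg adjustment over all probes, 203 of the 227 were called lower, that is at least 2-fold at an adjusted p below 0.05, where 2.97% of all tested probes were called lower and 2.3% higher. Of the probes detected in each naive flask, 1.86% were detected in no resistant flask. Since the rule used this contrast, nothing is read from these counts, which also depend on the background correction and the test. Under normexp with an offset of 50 limma called no probe (929 at an unadjusted p below 0.05), and neither did the methods' t-test after adjustment (4138 before it). After a reset of unusually bright local backgrounds, an alternative chosen once the data had been seen, limma on normexp values called 653 probes lower and 536 higher. The median difference of the 227 was -3.78 on the log2 scale (-0.28 under normexp and -0.79 with bright local backgrounds reset before it), against -0.02 over all tested probes, and single genes ran from -10.82 to -1.31. Among the other 13312 genes detected in naive cells, 13019 were detected on both resistant arrays, 205 on 1 and 88 on neither.

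**Figure D2:**
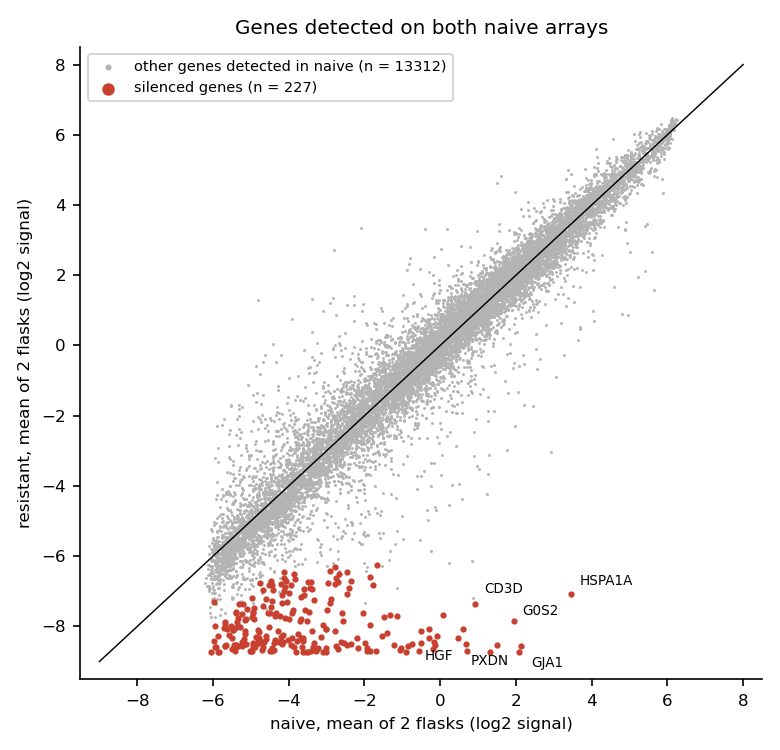
Mean log2 signal of 2 resistant flasks (y axis) against that of 2 naive flasks (x axis) for the 13539 named genes detected on both naive arrays, with the line of equal values. The 227 silenced genes (red) lie well below the line, where some of the other 13312 (grey) lie as well; the position of the red points follows from how they were chosen.

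Just inside the threshold on the deposited scale lay GARNL3 (-2.18), GREB1 (-2.14), FOXQ1 (-2.07), DSG2 (-2.03) and ENO2 (-2.03). Just outside it were JSRP1 (-1.99), SLITRK1 (-1.98), CMBL (-1.93) and AXIN2 (-1.90), together with ABCA1. Membership near this edge is a matter of the threshold.

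Functions were assigned by hand to 162 of the 227 genes, with the values known. The largest classes were transcription factors and chromatin proteins (27 genes), secreted, matrix and granule proteins (24), metabolic and detoxifying enzymes (24), cytoskeletal proteins with their GTPase regulators (22), receptors and immune signalling (16) and junction and adhesion proteins (12). In these 6 classes the lowest bounds lay between 1.34 and 1.98 and the highest between 72.8 and 388. The small classes of synaptic vesicle genes (3) and RNA-binding genes (4) held no bound above 5.79. Counts in gene lists are given below. For comparison, 1.68% of all named genes detected in naive cells were silenced, and 2.97% of all tested probes were called lower and 2.3% higher. No list was tested against these shares.

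Among the 24 secreted, matrix and granule proteins, 7 had bounds of at least 16-fold. HGF, hepatocyte growth factor, the ligand of the MET receptor, gave naive values of 0.17 and 1.19 and resistant values of -8.46 and -8.52, at least 142-fold lower. CTHRC1, a secreted collagen-region protein, gave 1.71 and -0.49 in naive and -8.53 and -7.64 in resistant cells, at least 136-fold lower, with naive flasks more than 2 log2 units apart. Its bound was 63.4 without the first naive flask and 290.2 without the second. LPL, which releases fatty acids from lipoproteins, gave 0.51 and -0.70 in naive and -8.60 and -7.94 in resistant cells, at least 83.1-fold lower, or 54.6 and 126 without the first and the second naive flask. AEBP1, a secreted matrix protein, had a bound of 80.3 and INHBB, a subunit of activin B, one of 33.3. The granule genes BPI, TCN1 and TPSAB1 had bounds of 2.21, 3.47 and 4.00 and were the 3 members of this class that were not called lower. Without the first and the second naive flask these bounds were 4.28 and 1.14 (BPI), 5.25 and 2.30 (TCN1) and 7.27 and 2.20 (TPSAB1). In BPI, a bactericidal protein of neutrophil granules, the naive flasks were at -6.29 and -4.37 and the resistant flasks at -6.68 and -8.84.

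Several of these genes are typical of stromal cells, so the stromal markers were read beside them. Of 18 such genes on the array 7 were detected on both naive arrays, none was silenced and 2 were called lower, COL6A1 (-3.17) and ACTA2 (-1.43). The defining collagens COL1A1, COL1A2 and COL3A1, and LUM and POSTN, were detected on no array of either line. THY1 had the highest signal of the list, at -0.39 and -0.25 in naive and -0.49 and -0.65 in resistant cells. The summed signal of the 8 tested genes of the list was 0.95 and 1.26 on the log2 scale in naive and 0.43 and 0.35 in resistant cells.

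The junction and adhesion class held 12 genes. Beside GJA1 they held DSP (desmoplakin) and DSG2 (desmoglein 2), which build desmosomes, and NCAM1, a neural adhesion molecule. DSP gave -3.16 and -3.75 in naive and -6.69 and -8.46 in resistant cells, at least 8.07-fold lower. DSG2 was dim in naive cells, at -5.93 and -5.96, with a bound of 1.44, and it was not called. Since desmosomes are typical of epithelial cells, the epithelial markers were read as well. Of 6 such genes on the array 4 were detected on both naive arrays and none was silenced. KRT18, a keratin, was called lower, at 2.20 and 2.70 in naive and -1.88 and -1.54 in resistant cells. EPCAM, KRT8 and KRT19 were not called, and CDH1 (E-cadherin) was detected on no array. Their summed signal was 2.92 and 3.38 in naive and 1.99 and 2.14 in resistant cells on the log2 scale, and its part in the values of the junction genes was not tested. No endothelial, monocyte, erythroid or megakaryocyte marker was silenced, while TIE1 (-2.72) and ITGA2B (-2.40) were called lower and MARCO (1.87) higher. GJA1 stood alone among its family. Of 23 connexin and pannexin genes on the array 9 were detected in naive cells, GJA1 was the only one called in either direction, and the median difference of those tested was -0.47. PXDN likewise was the only one of the heme peroxidases that was silenced: of 5 detected in naive cells, EPX (eosinophil peroxidase) was called higher by 1.94, LPO and PTGS1 were not called, and MPO was saturated on all 4 arrays.

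The cytoskeletal class of 22 genes had 9 with bounds of at least 16-fold. EPB41L2, which links the membrane to the spectrin and actin cytoskeleton, gave naive values of 0.33 and -0.68 and resistant values of -8.44 and -8.45, at least 78.7-fold lower. TRIO, an exchange factor for Rac GTPases, gave -1.59 and -0.86 against -8.50 and -8.56, at least 38.0-fold lower. Further members of this kind were the septin SEPT10 (now SEPTIN10), CDC42BPA, SPIRE1, EPS8, CLIP4 and RRAS2. All these genes were separated from background by wide margins in both naive flasks.

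Among the 16 receptors and immune genes, CD3D and CD3G encode the delta and gamma chains of the T cell receptor complex and lie next to each other on chromosome 11. CD3D gave 0.70 and 1.16 in naive and -7.61 and -7.11 in resistant cells, at least 169-fold lower. CD3G was dim, at -5.25 and -5.43 against -8.34 and -7.64, at least 2.19-fold lower. CD3E, the third gene of that locus, stayed detected at -4.34 and -4.05 in naive and -4.24 and -4.18 in resistant cells. The lymphoid markers CD2 and CD79A were also detected in naive cells and were not called, and MS4A1 and PAX5 were detected on no array. The summed signal of the 5 lymphoid genes tested was 1.58 and 1.75 on the log2 scale in naive and 0.48 and 0.57 in resistant cells, with CD3D the brightest in naive and CD79A in resistant cells. Without CD3D and CD3G, which the rule chose, it was 0.41 and 0.15 against 0.47 and 0.56. TLR2, which senses bacterial lipoproteins, gave -0.55 and -0.45 in naive and -8.44 and -8.49 in resistant cells, at least 62.7-fold lower, and the naive flasks differed little. LRP6, a coreceptor of Wnt ligands, had a bound of 42.6, NRP1 (neuropilin 1) of 24.2 and CR1, a complement receptor, of 13.8. Of 106 interleukin, chemokine and receptor genes detected in naive cells, CXCL10, CXCL3 and IL24 were silenced, each with a bound below 3-fold. A brighter probe of CXCL3 stayed detected, at -4.10 and -3.66 in naive and -4.21 and -4.72 in resistant cells, and was not called. Of the 113 genes of that list tested, 16 were called higher and 11 lower.

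The 27 transcription and chromatin genes included 5 forkhead factors, which are DNA-binding proteins that set cell fates in many tissues. FOXF2 gave naive values of -2.28 and -1.80 and resistant values of -6.98 and -8.23, at least 21.6-fold lower. FOXN4 gave -1.99 and -2.96 against -6.39 and -6.52, at least 15.4-fold lower. FOXD1 had a bound of 7.92, FOXL2 of 5.90 and FOXQ1 of 2.25, and FOXQ1 was not called. Without the first and the second naive flask these bounds were 12.2 and 5.17 (FOXD1), 9.11 and 3.83 (FOXL2) and 3.57 and 1.42 (FOXQ1). Other probes of FOXQ1 and FOXD1 stayed detected and were not called. That of FOXQ1 was bright, at 2.76 and 3.69 in naive and 3.08 and 3.10 in resistant cells, and that of FOXD1 gave -4.59 and -3.93 against -4.24 and -4.25, so the loss of signal in these genes was seen on 1 of 2 probes. The array held 40 forkhead genes, of which 34 were detected in naive cells, and the 29 that were not silenced were detected in both lines. Others went the opposite way: FOXC1 was called higher by 1.47, FOXD2 by 1.78, FOXD4 by 1.80 and FOXO1 by 1.51. The forkhead group was picked out after the members were seen. BCL7A, a subunit of the SWI/SNF chromatin remodelling complex, gave -0.54 and -0.03 in naive and -8.63 and -7.51 in resistant cells, at least 72.8-fold lower. Of 496 genes detected in naive cells that are named as zinc finger genes of the Cys2His2 type 8 were silenced, among them ZNF239 and ZNF334. Of the 502 such genes tested, 10 were called lower and 6 higher. The silenced share of these zinc finger genes was near the 1.68% of all named genes detected in naive cells. Of 48 homeobox genes detected in naive cells in a list of HOX genes and related families, SIX3 was silenced, with a bound of 2.10. CDX2, GBX2 and NKX2-3, homeobox genes outside that list, met the rule as well, with bounds of 1.56, 5.06 and 2.44. A brighter probe of NKX2-3 stayed detected, at -2.08 and -1.90 in naive and -2.33 and -2.30 in resistant cells, and was not called.

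Metabolic and detoxifying genes made up 24 of the members. MT1M, a metal-binding metallothionein, gave -0.94 and -2.12 in naive and -7.88 and -8.65 in resistant cells, at least 30.8-fold lower, or 20.4 and 46.4 without the first and the second naive flask. The other 10 metallothioneins detected in naive cells stayed detected in the resistant line, and none was called. All 10 had a lower mean there, with differences from -1.56 (MT2A) to -0.11 (MT1F), and in 8 of them both resistant values lay below both naive ones. In 8 of the 10 the first naive flask was also the higher of the naive flasks. Metallothionein genes are near-identical and probes can cross-hybridise, so the value of any one is uncertain. CBR1 and PTGR1, which reduce carbonyl compounds and prostaglandins, had bounds of 19.8 and 23.2, and their resistant values lay between -8.83 and -8.54. AKR1C3, an aldo-keto reductase with close relatives, had a bound of 4.91. ALDH1L2, a mitochondrial folate enzyme, gave -2.21 and 0.75 in naive cells, the widest gap between naive flasks among the 25 genes with the largest bounds, and -8.45 and -8.54 in resistant cells. Its bound of 53.5 became 149 without the first naive flask and 19.1 without the second. Of 16 glutathione transferase genes detected in naive cells none was silenced, and 1 was called higher. At the overall share of 1.68% a list of this size can hold none, so nothing is read from this. G0S2 and LPL were the silenced genes among 30 lipid droplet and fatty acid genes detected, where 3 were called lower and 1 higher. Of 250 solute carriers detected in naive cells 7 were silenced, led by the magnesium transporter SLC41A1 with a bound of 24.8. Of the 256 tested, 12 were called lower and 15 higher.

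Of the genes that restrain growth, BTG3, an antiproliferative protein, gave -0.47 and -0.67 in naive and -8.62 and -8.77 in resistant cells, at least 59.8-fold lower. WWC2, a relative of the Hippo pathway protein KIBRA, gave 0.32 and 0.60 against -8.33 in both resistant flasks, at least 122-fold lower. C13orf15 (now RGCC), a regulator of cell cycle, had a bound of 47.3 and HTATIP2 one of 31.8. CCND1 (cyclin D1) promotes the cell cycle, and its probe chosen by the rule was dim in naive cells, at -4.42 and -5.42, with a bound of 2.93. Its 2 other probes were brighter in naive cells and stayed detected in the resistant line, with differences of -1.58, which was called, and -1.10, which was not. HTATIP2 was the only silenced gene among 29 genes detected in naive cells in a list of genes often methylated in cancer. Of the 30 tested 3 were called lower and 1 higher. The list is not complete, and DNAJC15 and DFNA5, outside it, met the rule with bounds of 145 and 7.18. Of 23 genes detected in naive cells in a list of imprinted genes none was silenced, but 3 were called lower and none higher. These were CDKN1C (-4.47), a cyclin-dependent kinase inhibitor, PHLDA2 (-4.34) and the noncoding RNA H19 (-2.38), all of which stayed detected in the resistant line. The list does not hold every imprinted gene. ZDBF2, outside that list, met the rule with a bound of 11.1. Of 10 cancer-testis genes of the X chromosome detected in naive cells none was silenced, and of the 12 tested 2 were called higher and none lower. At the overall silenced share of 1.68% lists as small as these can hold none, so nothing is read from the absence of silenced genes in them.

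The arrays carry several probes for many genes, and these were used to read the label "silenced" against the gene as a whole. Of the 227 genes 102 had 1 probe. Of the other 125, 57 had another probe that was detected on both resistant arrays and 16 had one detected on 1 of them. That leaves 154 genes with no probe detected on a resistant array, 52 of which had several probes. The 71 other probes detected in the resistant line were mostly lower as well: 67 had a lower mean and 4 a higher one, the median difference was -2.0, 50 were at least 2-fold lower and 21 within 2-fold, 35 were called lower and none higher. In these 57 genes RNA was thus still detected in the resistant line by another probe.

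HSPA1A was the clearest case of probes that disagreed. The probe chosen by the rule lies at chr6:31785491-31785550 (hg19). The probe at chr6:31784945-31785004 gave 1.98 and 0.51 in naive and -0.81 and -1.48 in resistant cells, a difference of -2.39, and that at chr6:31784394-31784453 gave 1.56 and -0.04 against -1.49 and -2.10, a difference of -2.55. Neither was called. HSPA1A has a near-identical copy, HSPA1B, and the signal of these probes may come from both. In HGF 2 probes were not detected in the resistant line, and the probe at chr7:81372075-81372134 stayed detected at -4.05 and -4.37, after -0.01 and -0.61 in naive cells, and was called lower. A second probe of BCL7A gave -3.90 and -3.54 against -4.64 and -5.82, and 1 of 2 other NRP1 probes differed by only -0.36. A probe of GREB1 differed by -0.20 and 1 of 2 other CYP4V2 probes by -0.06, beside the FOXQ1, FOXD1, NKX2-3 and CXCL3 probes given above. In all, 19 genes had another detected probe within 2-fold. STEAP1 had 3 probes that all met the rule, but 1 of them lies elsewhere on chromosome 7. The genes DPY19L2, TMEM185B and TPSAB1 also have close copies, so the identity of all these genes is uncertain. Which transcripts account for the probes that disagreed was not tested.

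**Figure D3:**
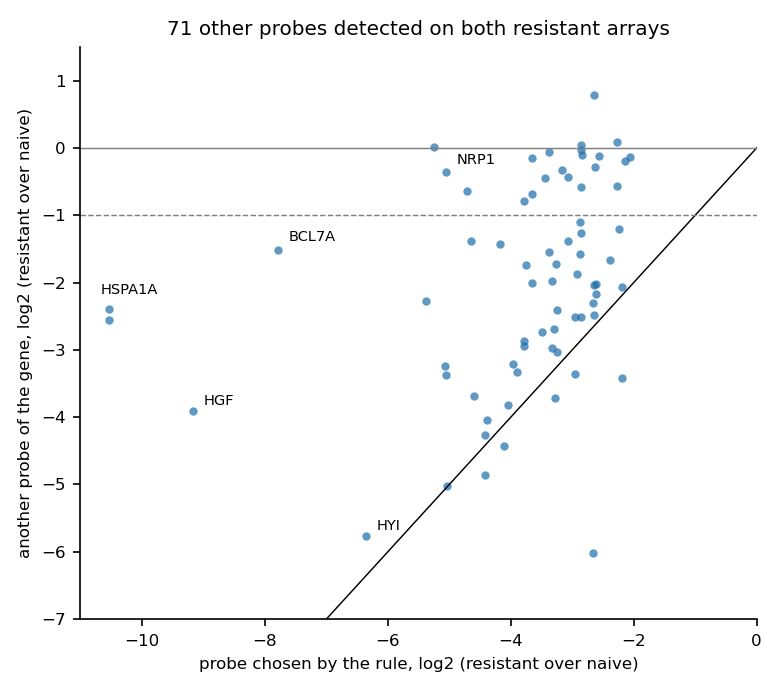
Log2 difference (resistant over naive) of 71 other probes of silenced genes that were detected on both resistant arrays (y axis) against that of the probe chosen by the rule (x axis), with the line of equal values. The dashed line marks a 2-fold lower signal; 50 points lie at or below it and 4 lie above 0, and both HSPA1A points are far from the line of equal values.

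Positions were taken from the probe positions of the array files (hg19), checked by chromosome against RefSeq, and 215 of the 227 genes could be placed. For the other 12 only the chromosome was known, from RefSeq, and they enter the counts by chromosome but not those of neighbours. Silenced genes were found on every autosome and on X. Their share of the genes detected in naive cells was 3.43% on chromosome 13 (8 genes) and 3.04% on chromosome 2 (26 genes). It was 0.475% on chromosome 19 (5 of 1053 genes) and 0.292% on chromosome 22 (1 of 342 genes). Chromosome 1 held the most, 30 genes, at a share of 2.13%. No test was made of these shares.

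**Figure D4:**
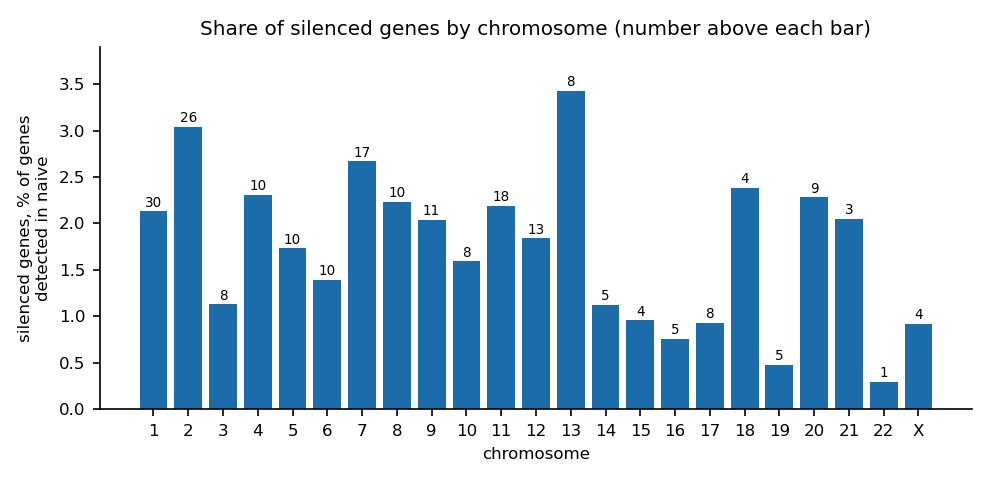
Silenced genes as a percent of the named genes detected on both naive arrays (y axis) by chromosome (x axis), with the number of silenced genes above each bar. Chromosomes 13 and 2 have the tallest bars (3.43% and 3.04%) and chromosomes 22 and 19 the shortest (0.292% and 0.475%).

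Of the placed genes 53 lay within 1 Mb of another silenced gene, in 25 groups, and 23 of these groups were pairs. The like share among all detected genes was not computed, so nothing is read from this count. CD3D and CD3G, given above as neighbours, are not among these groups, so the count is not complete. In 9 groups no other named gene of the array lay between the members. Of 113 genes in and beside these groups that were not members and were detected in naive cells, 109 (96.5%) were detected on both resistant arrays, against 97.8% of all 13312 such genes. Of the 113, 4 were called lower, 2 were called higher, and the median difference was -0.16. Over all tested probes 2.97% were called lower and 2.3% higher.

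The largest group, on chromosome 8, held SH2D4A, CSGALNACT1, LPL and LZTS1 within 851460 bases. INTS10, which lies between them, gave 3.83 and 3.63 in naive and 3.71 and 3.86 in resistant cells, and ATP6V1B2 gave 1.72 and 1.88 against 2.02 and 1.65. PSD3, just outside the group, stayed detected but was called lower by limma (-2.72). On chromosome 2, SEPT10 gave -0.63 and -0.37 in naive and -8.51 and -7.75 in resistant cells, at least 62.8-fold lower. Its neighbour ANKRD57 (now SOWAHC), an ankyrin repeat protein, gave -3.98 and -3.05 against -7.20 and -8.49, at least 7.77-fold lower. Their promoter windows printed above overlap by 103 bases on opposite strands, with 397 bases between the starts. SH3RF3, beside SEPT10, was called lower (-1.96) while it stayed detected.

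On chromosome 5, TRIO and FAM105A (now OTULINL) are neighbours with no named gene between their probes. FAM105A gave -1.97 and -2.93 in naive and -8.54 and -8.51 in resistant cells, at least 16.2-fold lower. The next gene, FAM105B (the deubiquitinase OTULIN), gave -1.70 and -2.06 against -1.39 and -1.27 and was not called. On the other side of TRIO, UNQ1870 was dim, at -5.19 and -4.76 in naive and -7.05 and -6.30 in resistant cells, and it was not detected on both resistant arrays and was not called. On chromosome 6, FOXF2 and FOXQ1 met the rule side by side, FOXQ1 by its dim probe alone, and FOXC1, the forkhead gene next to them, was called higher (1.47). On chromosome 19, C19orf63 (now EMC10), a subunit of the membrane protein insertion complex of the endoplasmic reticulum, gave -0.94 and -0.76 in naive and -8.48 and -8.63 in resistant cells, at least 49.2-fold lower, and FAM71E1 at 16326 bases from it had a bound of 3.21.

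**Figure D5:**
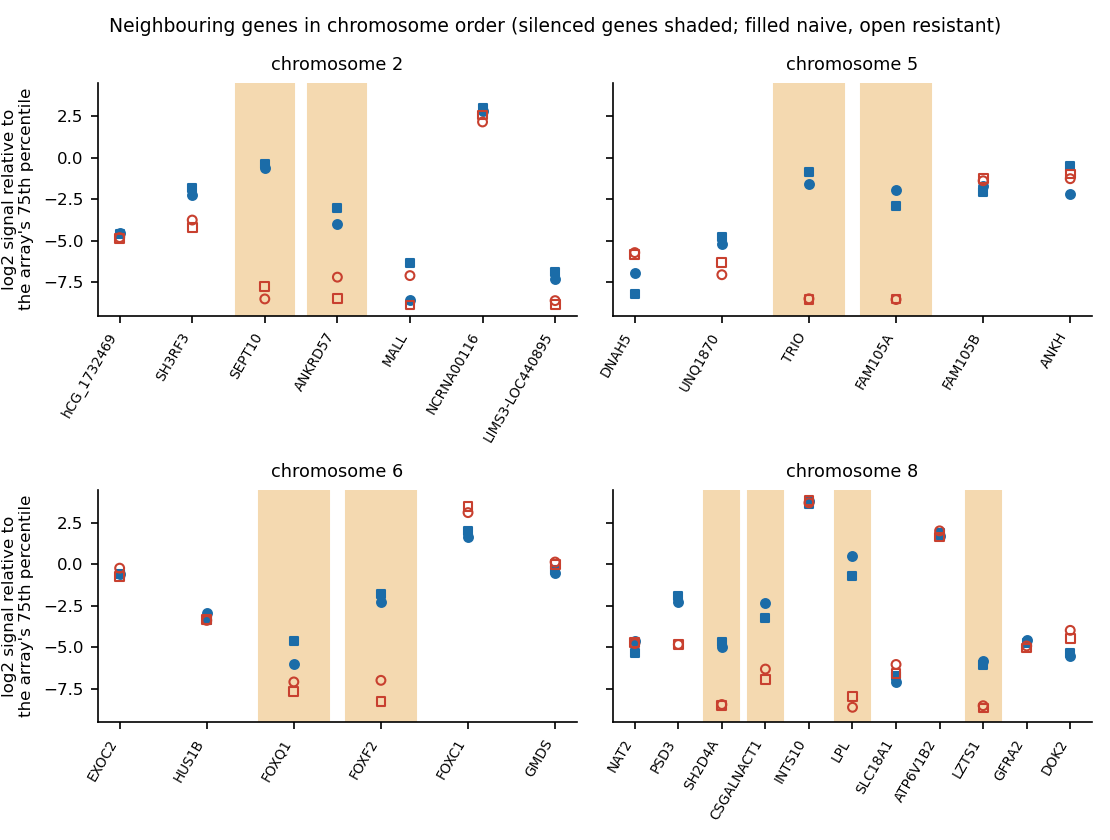
Log2 signal (y axis) of genes in chromosome order (x axis, evenly spaced, not every gene plotted) around silenced genes (shaded) on chromosomes 2, 5, 6 and 8: filled naive, open resistant, circle flask 1 and square flask 2. Silenced genes, shown by the probe chosen by the rule, drop below -6 in the resistant flasks, and neighbours such as INTS10, ATP6V1B2 and FAM105B keep their signal.

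Promoter windows shared with another gene gave a further view. Of 6 silenced genes whose window overlaps that of an opposite-strand gene detected in naive cells, SEPT10 and ANKRD57 were partners of each other. The other 4 partners were not silenced. BTBD7, opposite KIAA1409, differed by 0.63, FLJ38576, opposite CYP4V2, by -0.56, and HSPA1L, opposite HSPA1A, by -0.91, and none of these 3 was called. OPTN (optineurin), opposite CCDC3, was called lower: it gave -4.25 and -4.21 in naive and -6.23 and -7.01 in resistant cells.

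The naive flasks themselves differed in these genes. The first naive flask was lower than the second in 63.4% of the silenced genes (144 of 227, with 1 not measured on both), against 53.3% of the 27038 probes that were detected on both naive arrays and had a value left on each once outlier spots were removed. The naive values were at least 2-fold apart in 65 genes, or 28.6%, against 12% of all those probes. Both figures describe 2 flasks and carry no test. They were not matched for brightness, and the silenced genes were dimmer in naive cells than the named genes detected there (median -4.01 against -0.05). A larger gap is therefore not read as a trait of the silenced genes. The gap was wide in ANXA3, an annexin of myeloid cells, at -6.13 and -1.68, in ENO2, the neuronal enolase, at -6.05 and -3.44, and in SSTR2, a somatostatin receptor, at -3.45 and -5.57. Without the second naive flask the bound of ANXA3 fell from 5.92 to 1.27 and that of ENO2 from 3.31 to 1.34, and without the first that of SSTR2 fell from 3.91 to 1.87. Smaller bounds, such as those of BPI, IL24, FOXQ1 and SIX3, also came below 1.5 without 1 of the naive flasks. The gap was small in SPATS2L (1.37 and 1.24), TLR2 and CHST2 (-1.01 and -1.08). Without the first and the second naive flask their bounds were 210 and 230 (SPATS2L), 64.8 and 60.6 (TLR2) and 42.1 and 44.1 (CHST2). The rule asked for detection in both naive flasks, so nothing further is read from this.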

How the data were processed

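RNA from each of the 4 flasks, 2 per line, was hybridised to its own one-colour Agilent array. Image analysis by the authors used Feature Extraction (10.5.1.1 per the file headers), and the processed signal they deposited is a linear intensity after subtraction of background, replaced by a surrogate where it is too low. A second deposited table, which the authors made in GeneSpring GX, holds log2 values shifted by each array's 75th percentile.

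The rule was applied to that table and to the flags of the scanner output, with repeated spots averaged and a mean flag of at least 0.5 counted as 1. Accession-like gene names were left out. Values printed are log2 processed signals with outlier spots left out, spots of a probe averaged and the 75th percentile subtracted (Pearson's r with the deposited table at least 0.9998). A gene with several probes by the rule is given by the brightest of them in naive cells. The comparison of the lines used limma 3.58.1 (lmFit, eBayes) in R 4.3.3 over the 28228 probes detected on both arrays of at least 1 line that kept a value in each line (of 28231), with Benjamini-Hochberg adjustment, and was tested on simulated data. Arrays have no read depth, and their number limits the precision. The flasks are separate cultures, so p-values measure the spread between flasks.

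Current symbols were found in a RefSeq table (GRCh38.p14) for 225 of the 227 genes, 31 of them changed, and the array's names are used in the text. The members, the functional classes and the gene lists were chosen with earlier results of these data known. Genes named were the 25 with the largest bounds, members of the lists, members beside other members, those at the threshold and those whose probes disagreed; a few of these genes are not reported here. Alternatives covered background correction (normexp, offset 50), quantile and median scaling, the deposited table, other filters and thresholds, the t-test of the methods, a block on the replicate number, and leaving out each flask. The arrays lay on 1 slide, so no slide block could be fitted.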

Additional observations from a re-analysis of the deposited data

How the results depend on the processing

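Of the genes met by the rule, 227 became 293 with a log2 difference of at least 1 and 168 with at least 3, 226 with processed signals or without outlier spots, and 223 after quantile normalization. They became 134 (94 shared) with the flag for a significant signal in place of that for a signal well above background, 116 where every probe of a gene had to follow, 26 under normexp and 43 when local backgrounds that were unusually bright were reset before normexp, an alternative added after seeing the data. Leaving out 1 flask gave between 253 and 400 genes, with 400 without naive flask 1, 352 without naive flask 2, 265 without resistant flask 1 and 253 without resistant flask 2. Normexp with its offset compresses low signals by construction. The median log2 difference of the 227 was -0.28 under normexp and -0.79 with the backgrounds reset, and between -3.97 and -3.64 under the other settings. Of the 227, 179 were lower under all value settings, normexp included. Of 250 values of the 25 genes with the largest bounds, 198 moved by less than the spread between flasks, 52 by more, and none changed sign.

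The count of probes called lower (838) and higher (649) in the resistant line fell to 415 and 348 among probes detected on all 4 arrays and to 588 and 416 with no filter on dim probes. It was 0 and 0 under normexp by limma (929 probes at an unadjusted p below 0.05) and again 0 and 0 by the methods' t-test once p-values were adjusted (4138 probes before adjustment). By limma it was 653 and 536 where normexp followed the reset of bright backgrounds, so the absence of calls did not hold for both forms of normexp. Leaving out 1 flask gave between 470 and 2339 called lower and between 412 and 2470 called higher; 2339 and 1693 without naive flask 1, 2288 and 2470 without naive flask 2, 470 and 412 without resistant flask 1, 492 and 479 without resistant flask 2. The lone flask was assumed to vary like the other line. The labels number the flasks 1 and 2 in each line. Across the tested probes, the deviations of same-numbered flasks from the mean of their line correlated at 0.12. Same-numbered flasks share only a number. With the replicate block 787 probes were called lower and 588 higher, and the median difference of the 227 stayed at -3.78.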

Other observations

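The mirrored rule found 140 genes detected in the resistant line only. A further 65 probes without a gene symbol had the same pattern as the silenced genes.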
